A study of Rattus norvegicus with 39 samples.

Results

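The microRNAs (miRNAs) rno-miR-204-5p and rno-miR-132-3p, below without the species prefix, were followed in the sperm of male Fischer rats dosed with EGME. This solvent is ethylene glycol monomethyl ether. The pair were 2 of the 405 rows of the mature miRNA count table, picked by name because lower counts with dose had already been seen in these libraries. Their dose differences are therefore given as a description with standard errors and no test, and nothing is supported with them. Wild-type males received 0 mg/kg/d (water vehicle, EGME0), 50, 60 or 75 mg/kg/d (EGME50, EGME60 and EGME75) by gavage for 5 days and were left unexposed for 5 weeks before cauda epididymal sperm was taken, from rats described as 11 to 12 weeks old. Each of the 39 libraries was total RNA from the sperm of 1 male, with 10, 10, 9 and 10 libraries in the 4 groups. The libraries were spread over 13 chips of 3 libraries, the batch named in the labels.

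Mature miRNAs are short RNAs that guide Argonaute proteins to messenger RNAs, mainly through pairing of the seed, the bases near the 5′ end. miR-204 is processed from an intron of Trpm3, which encodes a cation channel, and is best known from retinal pigment epithelium, where it maintains the differentiated epithelial state. miR-132 is induced by the transcription factor CREB, is best known from neurons, where it promotes dendrite growth, and is transcribed together with miR-212. EGME is converted in the body to methoxyacetic acid, which damages spermatocytes. Mature sperm are almost silent in transcription and carry RNA from spermatogenesis and from the epididymis.

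The mature sequences are shown first because each miRNA has a seed-sharing paralogue from which short reads must be told apart. Sequences are from RefSeq (GRCr8) and run 5′ to 3′, with the seed, bases 2 to 8, in capitals.
miR-204-5p: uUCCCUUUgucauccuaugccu
miR-211-5p: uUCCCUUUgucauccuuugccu
miR-132-3p: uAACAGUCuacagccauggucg
miR-212-3p: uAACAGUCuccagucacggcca
All are 22 bases long. miR-204-5p and miR-211-5p were identical at 21 positions and differed by A17U, counted from the 5′ end with the miR-204-5p base first. miR-132-3p and miR-212-3p were identical at 17 positions and differed by A10C, C14U, U17C, U20C and G22A. In the RefSeq set, miR-211-5p was the only other miRNA with the UCCCUUU seed and miR-212-3p the only other with AACAGUC, so the seeds of the pair studied here were not shared. A GC content of 45.5% placed miR-204-5p above 45.8% of the 96 tested miRNAs with a RefSeq sequence, and 50% placed miR-132-3p above 72.9%.

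The hairpins show which arm each mature form comes from, with both mature arms in capitals.
Mir204: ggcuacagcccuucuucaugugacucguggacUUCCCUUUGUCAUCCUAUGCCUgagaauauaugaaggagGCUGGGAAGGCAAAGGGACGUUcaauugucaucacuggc
Mir132: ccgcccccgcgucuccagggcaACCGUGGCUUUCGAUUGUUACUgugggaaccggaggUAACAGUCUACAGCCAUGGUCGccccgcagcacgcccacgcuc
In the RefSeq annotation Mir204 lay inside Trpm3 and Mir211 inside Trpm1. Mir212 and Mir132 were neighbours, 182 bases apart, with Hic1 as the next gene on the Mir212 side.

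The miRNA table was shallow, and most so at the top dose. The median miRNA total per library was 15324.5 counts in EGME0, 14785.5 in EGME50 and 9270 in EGME60 males. In EGME75 males it was 3201.5, with a range of 139 to 8633. The table also held almost no value of 1: of its entries 9662 were 0, 17 were 1 and 1088 were 2, and the lowest value of either miRNA above 0 was 2. A listed 0 can therefore not be told apart from a single read here, and no upper limit from a count of 0 is given. Levels are in CPM, the count scaled to a fixed total of miRNA counts, after trimmed mean of M-values (TMM) scaling, which adjusts library totals so that most miRNAs match between libraries. Members of a germ cell marker list, among them the miR-34 family of meiotic and later germ cells, made up 6.47% to 33.1% of miRNA counts, so germ cell RNA was present in every library.

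miR-204-5p was detected in all 10 EGME0 males, with 18 to 179 counts per library and a median of 46.5. Its level there ran from 3172 to 16323 CPM with a median of 4451. At EGME50 it ran from 1563 to 6982 CPM, with a median of 2960, and at EGME60 from 436 to 5316 CPM, with a median of 2255. At EGME75 it ran from 0 to 2358 CPM with a median of 854. The EGME0 and EGME75 ranges did not overlap on this scale, whereas those of every other pair of groups did. For EGME75 replicate 24 this rested on a listed 0 in a library of 139 miRNA counts, which is too shallow to show a level like that of controls. The rule used this contrast, and how many of the other tested miRNAs also had ranges that did not overlap was not counted. The separation is therefore a description and not a trait shown to be particular to miR-204-5p. By a different measure, edgeR called 42.9% of all tested miRNAs in this contrast, and 21% lower. By library totals without TMM, 1 of the 10 EGME75 libraries stood above the lowest control, at 2785 against 2228 CPM.

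Counts of 0 for miR-204-5p were found only at EGME75, in 4 of the 10 males. At the median share of the control libraries, EGME75 replicate 15 would have held 15.7 counts, replicate 7 would have held 3.65, replicate 23 would have held 2.96 and replicate 24 would have held 0.510. Replicate 15 was thus the library at 0 with the depth to show a level like that of controls. Among the 6 males with counts, replicate 8 was closest to controls, with 13 counts where 17.1 corresponded to the control share. All 10 EGME75 libraries, replicate 24 included, lay below that share, as did 8 of 9 at EGME60 and 9 of 10 at EGME50. The mean log2 CPM was lower at each successive dose. It was 12.35 ± 0.68 (SD, n = 10) in EGME0 and 11.58 ± 0.57 (n = 10) in EGME50 males. In EGME60 males it was 11.12 ± 0.88 (n = 9) and in EGME75 males 9.20 ± 1.64 (n = 10). EGME50 and EGME60 differed by less than either SD, and the steps on both sides of them were larger than the SDs of the groups they joined. The EGME75 mean and SD include the 4 libraries at 0, each entered at 7.35, a value set by the prior count. The 6 EGME75 males with counts ran from 9.94 to 11.30, so the size of the last step rested in part on the zeros.

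**Figure D1:**
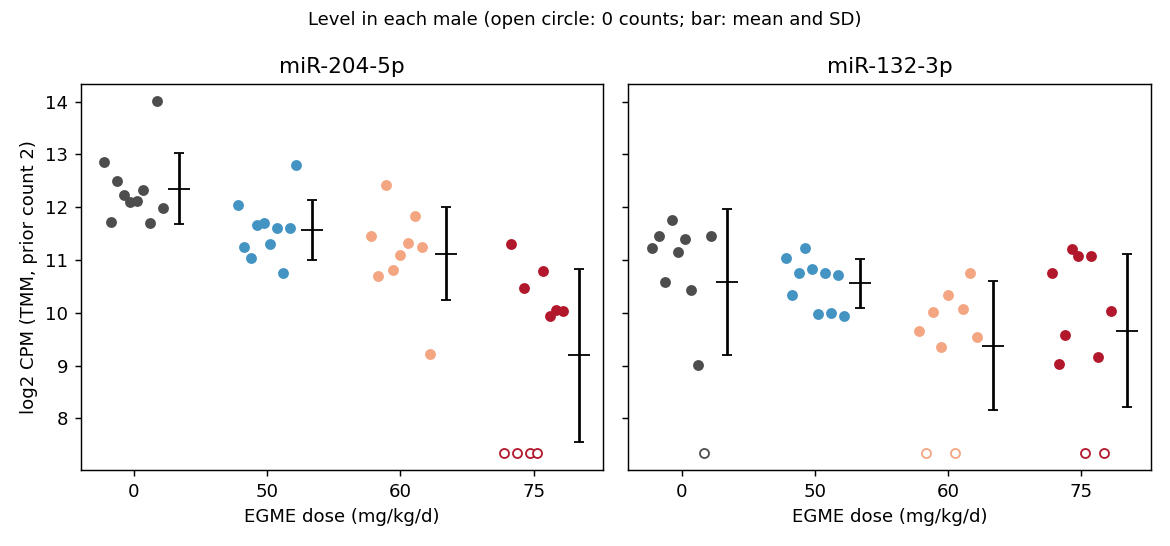
Level of miR-204-5p and miR-132-3p (log2 CPM with TMM scaling and a prior count of 2, vertical axis) in each male by EGME dose (mg/kg/d, horizontal axis), with the group mean and SD as a bar and libraries with 0 counts as open circles. The miR-204-5p points of EGME75 all lie below those of EGME0, while the miR-132-3p points of EGME60 and EGME75 lie within the EGME0 range.

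miR-132-3p was the scarcer of the pair. It made up 0.148% of miRNA counts at EGME0 on average, rank 63 of 405 rows, against 0.488% and rank 32 for miR-204-5p. Its level ran from 0 to 3313 CPM at EGME0 with a median of 2169, and from 821 to 2223 CPM at EGME50 with a median of 1542. At EGME60 it ran from 0 to 1561 CPM with a median of 642, and at EGME75 from 0 to 2188 CPM with a median of 742. The ranges of all 4 groups overlapped. The EGME75 median was the higher of the upper 2 doses. By medians, the label of a fall with dose thus held for miR-132-3p only as a difference between lower and higher doses, not as an ordered series. Its mean share of miRNA counts was 0.134% at EGME50, 0.0695% at EGME60 and 0.116% at EGME75. On that measure EGME75 lay nearer to EGME0 than EGME60 did.

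The mean log2 CPM of miR-132-3p was 10.58 ± 1.39 (SD, n = 10) in EGME0 and 10.56 ± 0.46 (n = 10) in EGME50 males. In EGME60 males it was 9.38 ± 1.23 (n = 9) and in EGME75 males 9.66 ± 1.45 (n = 10). EGME0 and EGME50 differed by less than their SDs, and so did EGME60 and EGME75. The step from EGME50 to EGME60, -1.18, was larger than the SD of EGME50 and smaller than that of EGME60. Below the EGME0 median level lay 9 of 10 males at EGME50, 9 of 9 at EGME60 and 9 of 10 at EGME75. Counts gave a narrower picture at the top dose: 6 of 10 EGME75 libraries held fewer counts than the control median share of their miRNA total, and replicate 16 held 14 counts where that share gave 10.2. For replicates 7, 23 and 24 that share gave 1.57, 1.27 and 0.219 counts, under the lowest listed value of 2. Their side was thus set by whether miR-132-3p was listed at all. The libraries at 0 were EGME0 replicate 33, EGME60 replicates 6 and 22, and EGME75 replicates 24 and 39. At the control share, EGME75 replicate 39 would have held 13.6 counts and EGME60 replicate 22 would have held 8.22, against 0.219 for EGME75 replicate 24.

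**Figure D2:**
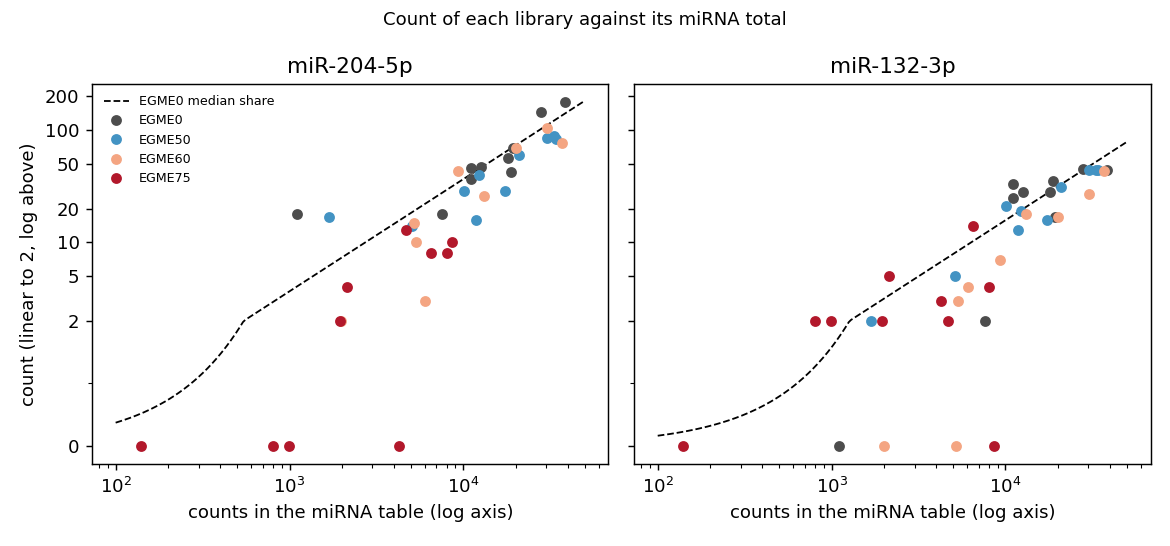
Count of each miRNA (vertical axis, linear up to 2 and logarithmic above) against the library's total in the miRNA table (horizontal axis, logarithmic), by dose group, with the median share of the EGME0 libraries as a dashed line. All 10 EGME75 points of miR-204-5p lie below the line, against 6 of 10 for miR-132-3p, and EGME75 libraries hold 139 to 8633 miRNA counts. In the 3 EGME75 libraries under 1000 miRNA counts, the side of the line says little of the level of either miRNA.

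Fitted over the whole table with edgeR, miR-204-5p differed from EGME0 by a log2 fold change of -0.84 (SE 0.41) at EGME50, -1.14 (SE 0.43) at EGME60 and -2.50 (SE 0.48) at EGME75. These put it at ranks 2, 10 and 3 from the lowest of 105 tested miRNAs. For miR-132-3p the values were -0.44 (SE 0.48), -1.34 (SE 0.51) and -1.02 (SE 0.55), at ranks 20, 4 and 25 from the lowest. The EGME75 value of miR-132-3p was thus under 2 SE from 0. Slopes on dose, scaled to a span of 75 mg/kg/d, were -1.95 (SE 0.42) and -1.15 (SE 0.47). The 3 contrasts share the EGME0 males and are not independent of each other. The median of all tested miRNAs was -0.01, 0.11 and -0.10 at the 3 doses, and edgeR called 2.86% of them at EGME50, 31.4% at EGME60 and 45.7% for the slope.

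Scaling moved the size of these differences. With library totals alone the EGME75 values became -2.01 for miR-204-5p and -0.50 for miR-132-3p, while the median of all tested miRNAs moved to 0.49. With the sum of the 4 deposited tables as the library size, which also counts tRNA, other noncoding and RNAcentral assignments, they became -3.74 and -2.54, with the median of all at -1.13. As CPM of the 4-table sum, miR-204-5p averaged 8.83 ± 7.36 (SD, n = 10) at EGME0 and 0.584 ± 0.730 (n = 10) at EGME75. On the same scale miR-132-3p averaged 2.55 ± 1.61 and 0.411 ± 0.430. The miRNA table itself was 0.178% of all counts at EGME0 and 0.0554% at EGME75.

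Single libraries weighed on miR-204-5p more through a control than through a dosed male. EGME0 replicate 33 stood at 16323 CPM, from 18 counts in a library of 1098, and the next control was at 7215 CPM. Without it the differences were -0.57, -0.83 and -2.18 at EGME50, EGME60 and EGME75. Leaving out the 3 libraries with fewer than 1000 miRNA counts, all of EGME75, gave -2.21 at that dose for miR-204-5p and -1.10 for miR-132-3p. Setting each 0 of the pair to 1 gave -2.24 and -0.93.

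Males of different groups could also be compared within a chip. There were 6 chips with both an EGME0 and an EGME75 male. In the 4 of these where both males had counts of miR-204-5p, the EGME75 male was lower each time, by differences in log2 CPM from -1.93 to -0.93. In the other two, chips 7 and 9, the EGME75 males (replicates 24 and 23) were at 0 in libraries where the control share gave 0.510 and 2.96 counts. Their differences, -6.66 and -5.14, are set by the prior count and say little of the level. For EGME50 all 6 chips, and for EGME60 4 of 5, had the dosed male or the mean of the dosed males lower. miR-132-3p was lower at EGME75 in 4 of 6 chips, with a median difference of -0.30 and a range of -4.11 to 0.49. The lowest came from the 0 of replicate 39, and both males of chip 7 had 0 counts. It was lower in 4 of 6 chips at EGME50 and 4 of 5 at EGME60. With chip as a fixed block in the edgeR fit the EGME75 values were -2.50 and -0.99, close to those without it.

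**Figure D3:**
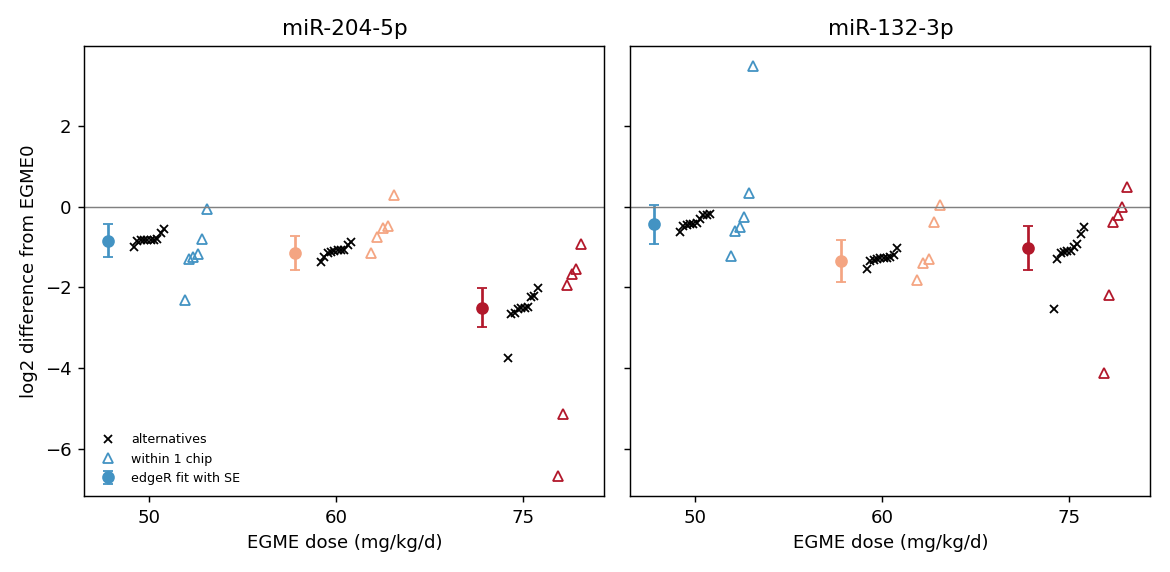
Difference from EGME0 in log2 units (vertical axis) at each dose (horizontal axis, mg/kg/d) for miR-204-5p and miR-132-3p: filled circles are the edgeR fit with its SE, crosses the 10 other ways of fitting, and triangles the difference in log2 CPM within single chips. All crosses lie below 0. The 4 chips of miR-204-5p at EGME75 with counts in both males lie between -1.93 and -0.93, and the lowest triangles, -6.66 and -5.14, come from EGME75 males at 0 in shallow libraries.

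The other arms and the paralogues were too scarce to test. Of 6 such miRNAs, 4 were in the table and none passed the filter on low counts. miR-211-5p, whose gene lies in Trpm1, a channel gene of melanocytes and retina, had 5 counts in all, each in an EGME60 library. It thus took 0.329% of the listed counts with the UCCCUUU seed (95% Wilson interval 0.141% to 0.768%). miR-204-3p, the other arm of the Mir204 hairpin, had 8 counts against 1514 for the 5p arm, or 0.526% of both arms (95% Wilson interval 0.267% to 1.03%). Both intervals pool all 39 libraries, those in the next paragraph pool the libraries of a group, and all cover counting error only. They do not cover reads lost because single reads were hardly ever listed. miR-211-5p and miR-204-3p were each listed above 0 in 3 libraries, so their shares and upper limits may be too low. The same holds for miR-132-5p and miR-212-3p where these were listed at 0.

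The Mir132 and Mir212 products were less one-sided. miR-132-5p held 11.7% of both miR-132 arms at EGME0 (34 of 291 counts, 95% Wilson interval 8.48% to 15.9%), 13.7% at EGME50 and 9.85% at EGME60. At EGME75 it was listed at 0 in every library, beside 34 counts of miR-132-3p, too few to compare its share with that of EGME0. miR-132-5p was listed above 0 in 18 libraries, each of which also held miR-132-3p. miR-212-3p made up 18.9% of the counts with the AACAGUC seed at EGME0, 18.4% at EGME50 (95% Wilson interval 14.4% to 23.3%), 17.9% at EGME60 and 22.7% at EGME75 (12.8% to 37.0%). Its 10 counts at EGME75 came from 1 library. The balance between the neighbouring hairpins was thus not distinguishable between groups at this depth. Of the counts of the pair together, miR-132-3p made up 28.1% at EGME0 (25.3% to 31.1%) and 43.0% at EGME75 (32.7% to 54.0%), from 34 and 45 counts at the top dose for miR-132-3p and miR-204-5p.

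Males that were high in miR-204-5p within their dose group were not found to be high in miR-132-3p. The rule did not use this variation within groups. After subtracting group means from log2 CPM, Pearson's r was -0.07 and Spearman's rho -0.001 over 39 males (two-sided permutation p = 0.735 and 0.995 within groups, adjusted p = 0.840 and 0.995 over 8 relations). EGME75 replicates 7, 15, 23 and 24, all at 0, tied as the males farthest from the miR-204-5p median. Leaving out replicates 7 and 15, the first by library order, gave r = -0.02 (permutation p = 0.942). EGME0 replicate 33, highest in miR-204-5p and at 0 for miR-132-3p, set the sign, and r was 0.0838 without it (permutation p = 0.706). Among the EGME0 males alone r was -0.64 and rho -0.32 (permutation p = 0.0794 and 0.367).

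**Figure D4:**
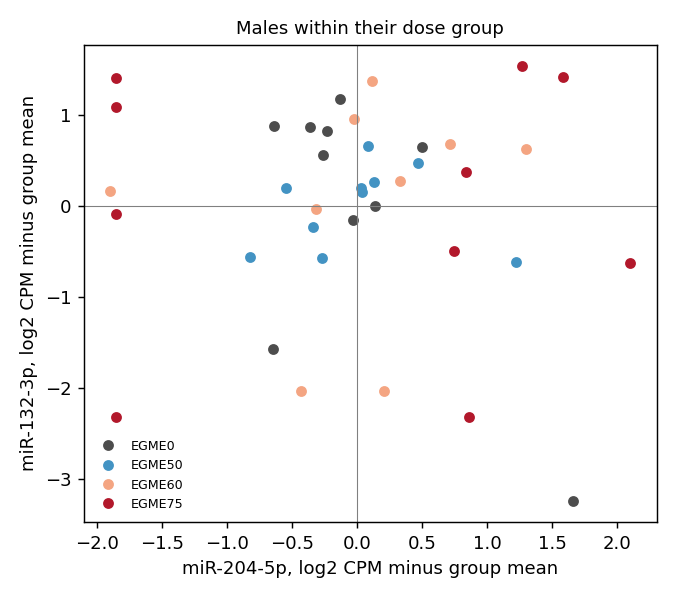
Level of miR-132-3p (vertical axis) against miR-204-5p (horizontal axis) in each of 39 males, both as log2 CPM minus the mean of the male's dose group, coloured by group. The points show no common direction (r = -0.07), and EGME0 replicate 33 lies alone at the lower right.

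Depth, marker shares and miR-212-3p were set against the pair in the same way, and no relation passed after adjustment over the 8. Depth came closest: miR-132-3p and the log10 miRNA total had a Pearson's r of 0.44 within groups (permutation p = 0.00939, adjusted p = 0.0751), with rho of 0.18 (adjusted permutation p = 0.509). Without EGME0 replicate 33 and EGME60 replicate 6, both listed at 0, r was 0.23. EGME60 replicate 22 and EGME75 replicates 24 and 39 were also at 0 and tied with them as farthest from the miR-132-3p median. Those left out were the first by library order, so the 0.23 holds for that choice only. Without the 3 libraries under 1000 miRNA counts r of miR-132-3p with depth was 0.47 (unadjusted permutation p = 0.00634). In EGME0, EGME50, EGME60 and EGME75 males alone r was 0.77, 0.42, 0.76 and 0.08. The respective rho values were 0.13, 0.19, 0.86 and -0.16. The relation of miR-132-3p with depth thus varied with the group and the libraries kept. For miR-204-5p and depth r was 0.23 and rho 0.32 (adjusted permutation p = 0.399 and 0.390). With the summed germ cell miRNA share, r was 0.38 for miR-132-3p and 0.23 for miR-204-5p (adjusted permutation p = 0.0866 and 0.399), with rho 0.28 and 0.19 (adjusted permutation p = 0.390 and 0.509). With the epithelial share r was -0.002 and 0.18 (adjusted permutation p = 0.991 and 0.399), with rho -0.11 and 0.18 (adjusted permutation p = 0.638 and 0.509). The same males were left out for miR-132-3p here, and EGME75 replicates 7 and 15 for miR-204-5p, again the first among ties. This gave r of 0.44 and 0.39 for the germ cell share (unadjusted permutation p = 0.0140 and 0.0368). For the epithelial share it gave -0.28 and 0.10 (unadjusted permutation p = 0.0581 and 0.534). With depth removed by regression, r with the germ cell share was 0.19 for miR-132-3p and 0.14 for miR-204-5p (unadjusted permutation p = 0.267 and 0.422). Without the 3 libraries under 1000 miRNA counts, r for miR-204-5p turned negative, to -0.09 with the germ cell share and -0.15 with depth. For miR-132-3p and the germ cell share r was 0.38 without them (unadjusted permutation p = 0.0149). miR-132-3p and miR-212-3p had r of 0.07 and rho of 0.09 (adjusted permutation p = 0.840 and 0.638), on sparse miR-212-3p counts. Without EGME0 replicate 33 and EGME60 replicate 6 their r was 0.15.

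The miRNAs most like each of the pair were different ones. Over all 39 libraries, Spearman's rho with miR-204-5p was highest for miR-26b-5p (0.68), miR-3580-3p (0.67) and miR-7a-5p (0.66), and miR-132-3p ranked 34 of 104 at 0.32. With group means removed the order was miR-26b-5p (0.72), let-7g-5p (0.55) and miR-743b-5p (0.52), and miR-132-3p ranked 75. For miR-132-3p the highest were miR-16-5p (0.73), a broadly expressed miRNA that restrains cell cycle genes, miR-151-5p (0.66) and miR-743a-5p (0.63). With group means removed they were miR-16-5p (0.62), miR-743a-5p (0.54) and miR-30c-5p (0.52). The median rho over all 104 was 0.11 and 0.07 for the pair over all libraries. These values are descriptions, since all points share libraries, depth and a common total.

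Other miRNAs best known from the nervous system and sensory epithelium were not called by edgeR among the miRNAs that passed the filter on low counts. Of 12 listed, 10 were in the table and 3 were tested. edgeR called 0 of the 3 at any dose or for the slope, and 0 had an unadjusted p under 0.05. Without EGME0 replicate 9, miR-138-5p was called higher at EGME60 (edgeR adjusted p = 0.0352), and with no filter miR-9a-5p, miR-134-5p and miR-219a-5p were called higher at 1 or more doses. The calls without a filter rested on few reads: miR-9a-5p had 36 counts in 9 libraries, miR-134-5p 10 in 1 library and miR-219a-5p 7 in 3 libraries. miR-124-3p, the abundant neuronal miRNA, was at 3047 ± 1777 CPM (SD, n = 10) at EGME0 and 1725 ± 1097 (n = 10) at EGME75, a log2 fold change of -0.67 (SE 0.49, edgeR Benjamini-Hochberg adjusted p = 0.261). miR-128-3p, also enriched in brain, was at -0.73 (SE 0.48, edgeR adjusted p = 0.205). miR-138-5p, which acts at dendritic spines, was at 0.74 (SE 0.71, edgeR adjusted p = 0.388). DESeq2 also called 0 of the 3, and limma-voom, in which chip was a random term, called miR-128-3p lower at EGME75 and for the slope (adjusted p = 0.0407 and 0.0241). The median of the 3 at EGME75 was -0.67, against -0.10 for all tested miRNAs.

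Markers of the cells that such samples can hold also differed at EGME75, where edgeR called 21.9% of all tested miRNAs higher and 21% lower. The 6 germ cell miRNAs, all in the table, summed to a median of 26.3% of miRNA counts at EGME0 (19.8% to 33.1%) and 13.3% at EGME75 (6.47% to 22.1%), and 4 of 5 tested were called lower at EGME75 while 0 were called higher. The 5 epithelial miRNAs had medians of 0.872% (0.625% to 1.29%) and 2.49% (1.81% to 4.77%), with 3 of 4 tested called higher. Of 7 blood miRNAs, 6 were in the table, with a median of 0.114% (0% to 0.343%) at EGME0 and 0.788% (0.248% to 4.82%) at EGME75, and 3 of 3 tested were called higher, while miR-144-3p was at 0 in both groups. The 4 muscle miRNAs had medians of 1.67% (0.954% to 3.27%) and 3.70% (1.12% to 9.80%), with 1 of 2 tested called higher and miR-1-3p at 0 in EGME75. miR-133a-3p, not tested, had a lower mean at EGME75, 257 CPM against 1723 CPM at EGME0. It was listed above 0 in 3 and 2 libraries of these groups. For miR-202, a marker of Sertoli and other gonadal somatic cells, the sums had medians of 0.0104% and 0.125%, with miR-202-3p at 0 in both groups and miR-202-5p, the arm tested, not called. Their part in the levels of miR-204-5p and miR-132-3p was not tested beyond the relations within groups given above, and fewer cells of a type cannot be told apart from less RNA per cell in these bulk samples.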

How the data were processed

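Small RNA libraries were built from 10 ng of total RNA with the Ion total RNA-seq kit, per the labels' protocols. The authors deposited raw sense-strand counts, here of mature miRNAs, with the totals of the tRNA, noncoding and RNAcentral tables used only as an alternative library size. FastQC, Bowtie and DESeq2 are named in the submitters' processing notes. Their settings, and how reads matching more than 1 miRNA were counted, are not given in the sources used here. Columns without a sample numbered 0. No other row had the same counts as either miRNA.

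The mature table was fitted with edgeR 4.0.16 in R 4.3.3: TMM factors (0.674 to 2.21), filterByExpr by group (105 of 405 rows, 97.1% of counts), robust quasi-likelihood tests over all 39 libraries and Benjamini-Hochberg adjustment at 0.05. Each dose was compared with EGME0, and a slope on dose was fitted. SEs are log2 fold changes divided by the square root of F. Relations within groups used 1e+05 permutations within groups (scipy 1.17.1, numpy 2.4.6). limma 3.58.1 and DESeq2 1.42.0 (poscounts size factors) served as alternatives. The scripts were tested on simulated data. RefSeq sequences (GRCr8) matched 372 of 405 rows, and coordinates are not given because the other tables name another build. P-values are judged against the variation between libraries of 1 male each. That variation holds differences between males together with counting and chip differences.

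The 2 miRNAs and the lists were chosen with earlier results of these data known. Named miRNAs were the pair, the listed related miRNAs and, for each of the pair, the 3 with the highest Spearman's rho. Four-table totals ran from 244869 to 24308152 counts.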

Additional observations from a re-analysis of the deposited data

Results flagged for a closer look

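EGME0 replicate 33 was far above the other controls in miR-204-5p, at 16323 CPM with the next control at 7215 CPM. The level came from 18 counts in a library of 1098 miRNA counts, and the same library held 0 counts of miR-132-3p.

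EGME50 replicate 36 stood apart in the same way, at 6982 CPM of miR-204-5p with the next male at 4067 CPM, from 17 counts in a library of 1681. Both were the shallowest miRNA libraries of their groups. Chance marks about 1 in 20 groups by this rule where values are normally distributed, and 8 groups were examined. Levels in CPM from so few counts need not be so distributed, so the chance rate here was not determined.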

How the results depend on the processing

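No paired analysis was possible because each replicate number belonged to 1 male of 1 group, so the numbers pair no males. Chips, which hold males of several groups, were used as blocks instead. Both miRNAs kept a negative difference at every dose and for the slope under all 10 alternatives and without any single library. For miR-204-5p and miR-132-3p the EGME75 value moved by more than the spread between males only with the sum of the 4 tables as library size, to -3.74 and -2.54. Without 1 library at a time, miR-204-5p ranged from -1.03 to -0.57 at EGME50, -1.26 to -0.83 at EGME60, -2.76 to -2.18 at EGME75 and -2.06 to -1.60 for the slope, and miR-132-3p from -0.57 to -0.33, -1.502 to -1.14, -1.28 to -0.80 and -1.35 to -1.04. The log10 miRNA total as a covariate brought miR-132-3p at EGME75 to -0.66. Zeros set to 1, and the relation in EGME0 males alone, were alternatives chosen after seeing the data.

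The relation between the pair ran from r = -0.20 to 0.0838 without single libraries, positive only without EGME0 replicate 33, and no alternative over all groups passed. With chip means also removed it did not pass either.

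The background counts moved more. EGME50 calls, 3 in all, went to 0 with RLE factors, limma-voom or chip as a fixed block and to 11 with library totals or no filter. Without single libraries they ran from 0 to 5: 0 without EGME0 replicate 1, 2, 10, 17 or 26 or EGME50 replicate 19, 20 or 35, 1 without EGME0 replicate 18, and 5 without EGME50 replicate 3. Without a filter edgeR called 61 at EGME60 and 90 for the slope. Without single libraries EGME60, EGME75 and the slope ran from 26 to 42, 41 to 50 and 40 to 53. Library totals split the EGME75 calls 33 higher and 10 lower, against 23 and 22 with TMM, and those at EGME60 32 and 7, against 21 and 12, and those of the slope 41 and 11, against 26 and 22. Among the related miRNAs, 0 were called in the filtered edgeR fit. No filter gave 1 at EGME50 (miR-9a-5p, higher), 2 at EGME60 (miR-9a-5p and miR-134-5p, higher), 3 at EGME75 (miR-9a-5p and miR-219a-5p higher, miR-132-5p lower) and 3 for the slope (miR-9a-5p, miR-134-5p and miR-219a-5p, higher). All of the miR-134-5p counts came from 1 library. limma-voom gave 1 at EGME75 and 1 for the slope, and leaving out EGME0 replicate 9 gave 1 at EGME60 (miR-138-5p, higher), with a range of 0 to 1. Depth limits what a listed 0 shows in the 3 EGME75 libraries under 1000 miRNA counts.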
